A study of Homo sapiens with 2 samples.

Results

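ZFAND1 and IFRD1 are a pair of genes with links to cellular stress, described here on an Affymetrix human exon array. Every probe set annotated to them among the deposited values was used. They were chosen by their measured difference between a TUC338 knockdown and its control, so that difference is given as a description of the 2 genes and not as a test. Of 42575 probe sets annotated to a single gene symbol, 8 belonged to ZFAND1 and 13 to IFRD1, together 21 probe sets and 2 of 2792 genes. None of these 21 was shared with another symbol, and every one of them is reported.

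The cells were HepG2, an established human hepatoma line, grown on plates coated with collagen. The first group was transfected with a locked nucleic acid (LNA), a chemically stabilised antisense oligonucleotide, directed at TUC338, a noncoding RNA with an ultraconserved stretch. The other group received a control LNA. Each group was represented by 1 array, and the labels do not say how many cultures stood behind it. No probe set was annotated to TUC338, and per the design text of the study its reduction had been verified experimentally.

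ZFAND1 encodes a zinc finger protein with AN1 domains. In human cells it has been described at stress granules, the assemblies of stalled mRNA and protein that form under arsenite and other stresses, where it brings the ATPase VCP and the proteasome so that the granules are cleared. IFRD1, also called TIS7 or PC4, encodes a transcriptional co-regulator that associates with the SIN3 and histone deacetylase machinery. Its mRNA carries a short upstream reading frame and is a target of nonsense-mediated decay, the pathway that degrades mRNAs with early stop codons, and it has been reported to be stabilised when translation initiation is reduced during stress. The mouse homologue Tis7 was first described as a gene induced within a short time by phorbol ester.

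The IFRD1 promoter is printed because it is the regulatory sequence next to a start of one of these genes for which a reference sequence was used here. RefSeq (GRCh38.p14) lists 4 starts of IFRD1 on the plus strand of chromosome 7. The 250 bases before the start that the table lists first, chr7:112450258-112450507, are given 5′ to 3′, with capitals marking a match to the cAMP response element and a match to the CCAAT box.

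IFRD1 promoter: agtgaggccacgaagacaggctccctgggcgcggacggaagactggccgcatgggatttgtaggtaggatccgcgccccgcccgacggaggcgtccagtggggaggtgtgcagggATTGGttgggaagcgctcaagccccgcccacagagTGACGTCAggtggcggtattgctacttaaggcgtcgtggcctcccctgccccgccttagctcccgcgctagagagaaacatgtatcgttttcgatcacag

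The cAMP response element was searched as TGACGTCA, which reads the same on both strands, and it lies from base 100 to base 93 before the start. The CCAAT box was searched as CCAAT on both strands, and the match, on the minus strand, lies from base 135 to base 131 before the start. The response element was present in 1.65% of 35116 windows of this kind in the table and the CCAAT box in 32.0%. Of the 4 IFRD1 windows, 2 held the response element, and those 2 overlap each other. An AP-1 site (TGANTCA), found in 6.57% of all windows, matched only the window of the most upstream start, where an antioxidant response element (TGACNNNGC, 10.9% of windows) matched over the same bases. No C/EBP-ATF response element (TGATGNAA, 3.14% of windows) and no core of a heat shock element (GAANNTTC, 5.78%) was found in any IFRD1 window. These are matches of letters and not evidence of binding.

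Values below are log2 intensities per probe set, and a difference is knockdown minus control on that scale. The knockdown array was brighter as a whole, with a median intensity of 507 against 422 on the control array over 45200 probe sets. The gene with the median difference was higher by 0.28 in deposited values, or 1.22-fold. Differences called relative have this 0.28 subtracted. The SD that follows a gene's mean is taken over its probe sets on the same 2 arrays, so it shows how far the stretches of the gene agree and does not stand for replicate cultures. Of 15 hepatocyte and hepatoma markers fixed as a check of the cell line, 6 were measured, among them ALB, APOB and GPC3, with mean log2 intensities between 10.53 and 13.02 on the knockdown array and between 9.98 and 12.97 on the control array. Of 10 markers of leukocytes, endothelium and stromal cells, COL1A1 (7.89 in the knockdown, 8.51 in the control) and ACTA2 (10.20 in the knockdown, 9.87 in the control) were measured.

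ZFAND1, which lies on chromosome 8 and whose promoter was not analysed here, was higher on the knockdown array at every one of its probe sets. Over the 8 probe sets the log2 intensity averaged 10.09 ± 0.91 in the knockdown and 8.63 ± 0.91 in the control (SD over probe sets). The mean difference was 1.46 ± 0.15 in deposited values, a 2.76-fold higher intensity, and 1.18 relative to the median gene, or 2.26-fold. Probe sets are taken in the order of their numbers. Probe set 3142522 had a log2 intensity of 10.26 in the knockdown and 8.74 in the control. Probe set 3142523 had 8.67 in the knockdown and 7.22 in the control. Probe set 3142525 had 8.90 in the knockdown and 7.45 in the control. These first 3 therefore differed by nearly the same amount, with relative differences of 1.24, 1.17 and 1.16, although their intensities did not lie together.

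Probe set 3142529 had a log2 intensity of 10.09 in the knockdown and 8.60 in the control. Probe set 3142531 had 10.70 in the knockdown and 8.99 in the control. This was the highest relative difference of the gene, 1.43, and corresponds to intensities of 1666 in the knockdown and 508 in the control. Probe set 3142532 had 10.61 in the knockdown and 9.08 in the control. Probe set 3142534 had 10.11 in the knockdown and 8.89 in the control, and its relative difference of 0.94 was the lowest of the 8. Probe set 3142537, the brightest, had 11.39 in the knockdown and 10.07 in the control. Its relative difference of 1.04 was the second lowest, so the brightest stretch of ZFAND1 lay somewhat under the mean of the gene.

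**Figure D1:**
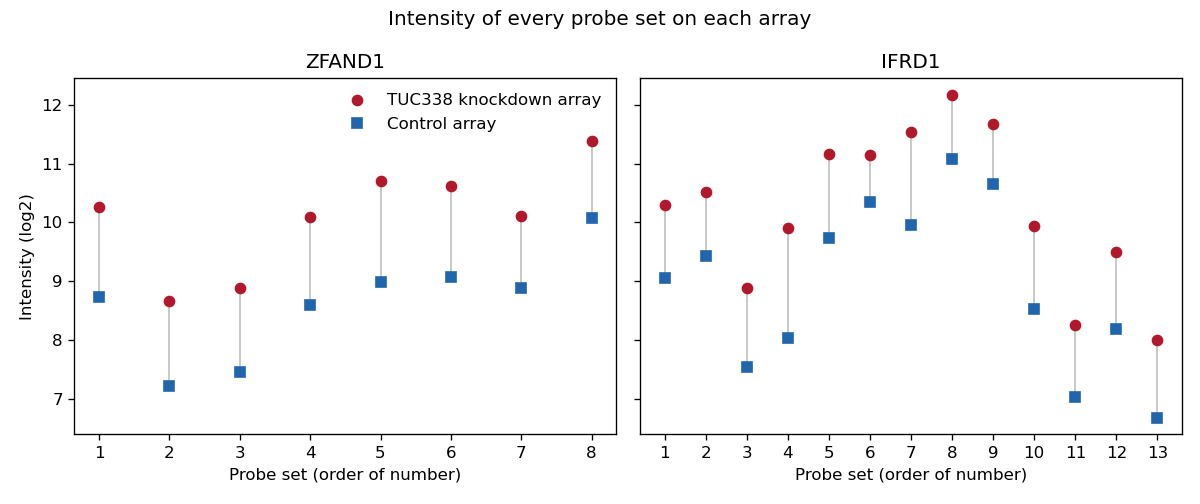
Log2 intensity of each probe set of ZFAND1 and IFRD1 on the TUC338 knockdown array (circles) and the control array (squares), in the order of the probe set numbers, with a line joining the 2 values of a probe set. The knockdown value lies above the control value at all 8 ZFAND1 and all 13 IFRD1 probe sets.

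IFRD1 was also higher on the knockdown array at each of its 13 probe sets, with a wider spread along the gene. The log2 intensity averaged 10.23 ± 1.31 in the knockdown and 8.94 ± 1.40 in the control (SD over probe sets). The mean difference was 1.29 ± 0.27 in deposited values, or 2.44-fold, and 1.0 relative to the median gene, or 2.00-fold. For genes of the same strand and chromosome as IFRD1, the order of probe set numbers followed the order of the genes along the chromosome without exception (Spearman 1.0 over 42 genes). If the numbers within a gene follow the same order, the IFRD1 probe sets are listed here from 5′ to 3′.

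Probe set 3019526 had a log2 intensity of 10.29 in the knockdown and 9.05 in the control. Probe set 3019528 had 10.52 in the knockdown and 9.43 in the control. Probe set 3019530 had 8.89 in the knockdown and 7.55 in the control. The relative differences of these 3 were 0.95, 0.80 and 1.06, with 0.95 and 0.80 below the mean of the gene and 1.06 above it. Probe set 3019531 had 9.91 in the knockdown and 8.05 in the control. Its relative difference of 1.58 was the highest of all 21 probe sets, with an intensity of 964 in the knockdown and 265 in the control.

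Probe set 3019533 had a log2 intensity of 11.16 in the knockdown and 9.74 in the control. Probe set 3019537 had 11.14 in the knockdown and 10.34 in the control. Probe set 3019538 had 11.53 in the knockdown and 9.95 in the control. These neighbours in number stood furthest apart: the relative difference was 1.13 at the first, 0.51 at the next, the lowest of all 21, and 1.30 at the last. In intensity, 3019537 read 2258 in the knockdown and 1300 in the control. Probe set 3019539, the brightest of the gene, had a log2 intensity of 12.17 in the knockdown and 11.08 in the control. Probe set 3019546 had 11.67 in the knockdown and 10.65 in the control. Their relative differences of 0.80 and 0.74 lay below the mean of the gene.

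The remaining 4 probe sets of IFRD1 had relative differences close to one another. Probe set 3019550 had a log2 intensity of 9.94 in the knockdown and 8.52 in the control. Probe set 3019552 had 8.27 in the knockdown and 7.03 in the control. The relative differences of these were 1.14 and 0.95. Probe set 3019556 had 9.49 in the knockdown and 8.19 in the control, and probe set 3019557, the dimmest, had 8.0 in the knockdown and 6.68 in the control. Their relative differences of 1.02 and 1.03 were almost equal although the intensities differed.

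Counted by probe set, 7 of 8 for ZFAND1 and 7 of 13 for IFRD1 were at least 2-fold higher relative to the median gene. The share over all 42575 probe sets with a single symbol was 0.707%. Were the deposited numbers read as log2 values, these counts would be 0 of 8 and 1 of 13. In deposited values the counts were 8 of 8 for ZFAND1 and 12 of 13 for IFRD1, with 3.1% of all probe sets at least 2-fold higher. The choice of the genes used this contrast, so these counts describe the genes and are not read against the background. The exception in IFRD1 was again 3019537, at 1.74-fold in deposited values. Its relative difference was reached or passed by 8.57% of all probe sets, while that of 3019531 was reached by 0.00940%.

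The agreement along the gene differed between the 2 members. Both were chosen as consistently higher, so the place of their SD among other genes is only a description. The SD of 0.15 over the ZFAND1 probe sets was small: 39 of 2141 genes with at least 8 probe sets, or 1.82%, had a lower one, and the median gene had 0.27. The SD of 0.27 for IFRD1 lay near that median, with 51.2% of these genes below it. The relative differences of IFRD1 spanned 1.07 from the lowest to the highest probe set, against 0.49 for ZFAND1. Of the 13 IFRD1 probe sets, 8 fell within the range of the ZFAND1 probe sets, 4 below it and 1 above it. The gap between the means, 0.18 for ZFAND1 minus IFRD1, was smaller than the SD over the IFRD1 probe sets.

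The shape of the intensity profile was kept between the arrays. Across probe sets, the knockdown and control log2 intensities correlated with a Pearson r of 0.987 for ZFAND1 (n = 8) and 0.983 for IFRD1 (n = 13), where the median gene with at least 8 probe sets had 0.957. Part of this agreement is shared by construction, since the same probes were read on both arrays and the brightness of a probe set also reflects its probes. The first and last probe sets by number were compared as means, which can hide a shorter stretch at an end. The last ZFAND1 probe sets by number, 3142534 and 3142537, had the lowest relative differences of the gene, 0.94 and 1.04. The first 4 ZFAND1 probe sets by number had a mean relative difference of 1.19 ± 0.04 and the last 4 one of 1.16 ± 0.22 (SD over probe sets). For IFRD1 the first 6 had 1.01 ± 0.36 and the last 6 had 0.95 ± 0.15. These means differed by less than the SD over the probe sets.

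**Figure D2:**
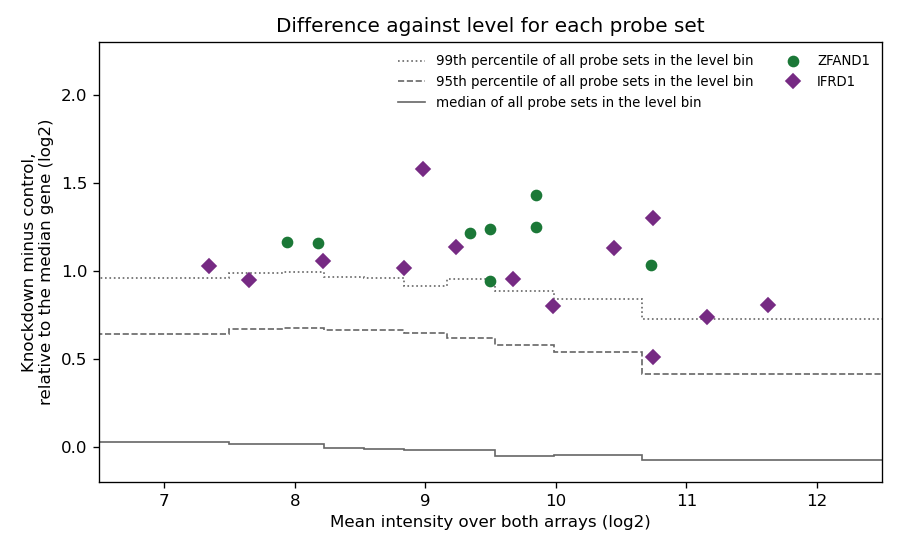
Relative difference (knockdown minus control, log2) of each ZFAND1 probe set (circles) and IFRD1 probe set (diamonds) against its mean log2 intensity over both arrays. The stepped lines give the median, the 95th and the 99th percentile of all single-symbol probe sets in 10 bins of equal size by level, and all 21 points lie above the 95th percentile line.

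The differences were also set against level. In ZFAND1 the brighter 4 probe sets had a mean relative difference of 1.24 ± 0.16 and the dimmer 4 one of 1.12 ± 0.12. In IFRD1 the brighter 6 had 0.88 ± 0.28 and the dimmer 6 had 1.13 ± 0.23. Both gaps were about the size of the SDs or smaller. Across all probe sets with a single symbol, the median relative difference went down slightly with level, with 0.03 in the dimmest and -0.07 in the brightest of 10 bins, and the 99th percentile was 0.96 in the dimmest and 0.73 in the brightest. Within its own level bin, every ZFAND1 and every IFRD1 probe set lay above the 95th percentile, and 7 of 8 and 10 of 13 lay above the 99th. These are the differences by which the genes were chosen, so the counts are a description and not a test against level.

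At the level of genes, 2742 had at least 4 probe sets. By mean over probe sets, ZFAND1 had the highest relative difference of all of these and IFRD1 the eighth highest, while with the brightest probe set in place of the mean they ranked 10 and 32. Both were among the 8 genes, 0.292%, whose mean was at least 2-fold higher relative to the median gene, and among the 27 genes, 0.985%, that were so in deposited values. IFRD1 stood just inside the 2-fold line with a mean of 1.0, and RCAN1, an inhibitor of the phosphatase calcineurin, just outside it with 0.98 ± 0.33 over 8 probe sets. ZFAND1 also ranked first by its lowest probe set. It was one of 5 genes, 0.182%, with every probe set at least 1.5-fold higher relative to the median gene, while IFRD1 missed this at 1 of its 13 probe sets. Both belonged to the 201 genes, 7.33%, with every probe set above the median gene. Since both were chosen as consistently higher, these ranks and shares describe them and are not a test.

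**Figure D3:**
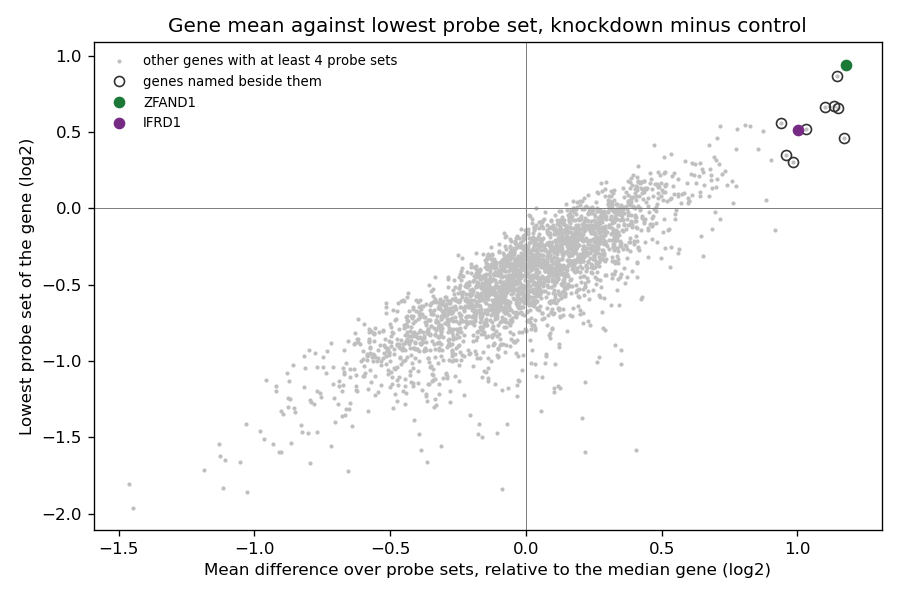
Mean relative difference over the probe sets of a gene against the relative difference of its lowest probe set (knockdown minus control, log2) for 2742 genes with at least 4 probe sets. ZFAND1 lies at the far upper right with a mean of 1.18 and a lowest probe set of 0.94, and IFRD1 has a mean of 1.0 and a lowest probe set of 0.51.

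The genes most like each member were taken as those with the closest mean relative difference among genes with at least 8 probe sets. With 2 arrays, likeness is this 1 number and carries no further pattern. Closest to ZFAND1 was TMEM30A, a subunit of phospholipid flippases, with 1.17 ± 0.34 over 11 probe sets, where 10 of 11 were at least 2-fold higher. SNAPC1, a subunit of the complex that activates small nuclear RNA genes, followed with 1.15 ± 0.25 over 8, then the ubiquitin ligase RNF144B with 1.13 ± 0.29 over 16 and the nuclear receptor RORA with 1.10 ± 0.27 over 10. The SDs of all 4 were larger than that of ZFAND1. Closest to IFRD1 were RCAN1, given above, and the F-box gene FBXO8 with 1.03 ± 0.22 over 10 probe sets. They were followed by NCEH1, a neutral cholesterol ester hydrolase, with 0.96 ± 0.42 over 8, and ZCCHC8, a subunit of a nuclear RNA-targeting complex, with 0.94 ± 0.28 over 16. TMEM19, with 1.15 ± 0.20 over 7 probe sets, completed the 8 highest genes.

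The gene groups around the 2 members were described next, by means over probe sets relative to the median gene and for genes with at least 4 probe sets, leaving out the members themselves. Over all 2742 such genes, 63 were higher by 1.5-fold or more, 2.3%, 98 were lower by as much, 3.57%, and the median was 0.0020. Of the 6 other AN1 zinc finger genes in the list, 2 were measured and neither was 1.5-fold away from the median gene. ZFAND2A, an arsenite-inducible partner of the proteasome, averaged 0.08 ± 0.17 over 6 probe sets, and ZFAND6 0.13 ± 0.19 over 7. ZFAND1 had 1.18, but it was chosen by its difference, so its distance from these 2 relatives is no result about the family. IFRD2, the paralog of IFRD1, was not analysed here.

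VCP and its cofactors, the ATPase system that ZFAND1 is known to bring to stress granules, had 12 of 32 listed genes measured, with 8 above and 4 below the median gene, none at 1.5-fold, and a median of 0.06. VCP itself had a mean of -0.06 ± 0.20 over 13 probe sets. The furthest from the median gene were the membrane ubiquitin ligase SYVN1 with -0.26 ± 0.33 and the adaptor FAF1 with 0.18 ± 0.37. DERL2, a channel factor of protein export from the endoplasmic reticulum, had 0.14 ± 0.32, and the adaptor UBXN6 0.13 ± 0.30. PLAA, a ubiquitin-binding cofactor, had 0.10 ± 0.17.

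Proteasome subunits, activators and the inhibitor PSMF1 had 16 of 44 listed genes with at least 4 probe sets, 10 above and 6 below the median gene, with a median of 0.04. None was 1.5-fold away. The lid subunit PSMD3 lay under the median gene at each of 13 probe sets (-0.39 ± 0.17), and the ubiquitin receptor ADRM1 was above it at all of 7 (0.35 ± 0.16). The means of the assembly chaperone PSMD10 (0.18 ± 0.32), the activator subunit PSME2 (-0.17 ± 0.16) and the activator PSME4 (-0.16 ± 0.31) were smaller.

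Stress granule proteins had 15 of 51 listed genes measured, 7 above and 8 below the median gene, with a median of -0.02. UBAP2L, a protein that nucleates stress granules, was the only one at least 1.5-fold away, lower at all of 26 probe sets with a mean of -0.78 ± 0.24. FXR1, an RNA-binding relative of the fragile X protein, lay below the median gene at all of 16 (-0.49 ± 0.30), PRRC2C at 43 of 47 (-0.35 ± 0.24) and UBAP2 at 30 of 35 (-0.30 ± 0.25). At the upper end, the RNA-binding protein LARP4 had 0.29 ± 0.30 with 19 of 22 probe sets above the median gene. In deposited values the mean of UBAP2L was -0.50 and that of FXR1 -0.20, while the mean of PRRC2C was -0.07 and that of UBAP2 -0.01.

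Genes of the integrated stress response, in which phosphorylation of an initiation factor lowers translation, had 11 of 47 listed genes measured, 7 above and 4 below the median gene, none at 1.5-fold, with a median of 0.16. The kinase EIF2AK2, which senses double-stranded RNA, lay under the median gene at each of 16 probe sets (-0.57 ± 0.19), and the amino acid sensor EIF2AK4 at all of 7 (-0.36 ± 0.26). The exchange factor subunit EIF2B2 was above it at all of 9 (0.49 ± 0.23), the tRNA exporter XPOT at all of 22 (0.43 ± 0.24) and the alanyl-tRNA synthetase AARS1 at all of 23 (0.39 ± 0.18).

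The SIN3 and histone deacetylase genes, the machinery with which IFRD1 associates, had 8 of 28 listed genes measured, 3 above and 5 below the median gene, none at 1.5-fold, with a median of -0.02. The scaffolds SIN3A (-0.07 ± 0.29 over 23 probe sets) and SIN3B (-0.09 ± 0.21 over 11) lay close to the median gene. The deacetylase HDAC5 was below it at each of 20 probe sets (-0.45 ± 0.30), the SIN3 subunit SUDS3 above it at all of 5 (0.21 ± 0.15), and SAP130 had 0.06 ± 0.22.

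Nonsense-mediated decay had 8 of 24 listed genes measured, 5 above and 3 below the median gene, with a median of 0.17 that turned to -0.13 with the brightest probe set in place of the mean. DCP1A, a co-factor of mRNA decapping, was the only one at least 1.5-fold away, higher at all of 9 probe sets with a mean of 0.77 ± 0.20. The helicase DHX34 (-0.32 ± 0.21) lay below the median gene at each of 12 probe sets and the endonuclease SMG6 (-0.26 ± 0.20) at 19 of 21. The junction factor CASC3 (0.28 ± 0.31) lay above it at 9 of 11 and the release factor ETF1 (0.22 ± 0.37) at 9 of 13. Among immediate early genes, 3 of 43 were measured. MCL1, which opposes apoptosis, was higher at all of 12 probe sets (0.72 ± 0.27), ZFP36L1, an mRNA decay factor, had 0.21 ± 0.32 and the transcription factor SRF -0.04 ± 0.20. The median of these 3 was 0.21. No measured gene of these lists had a mean as high as that of ZFAND1 or IFRD1. Both were chosen for high differences, and only 8 of 2742 genes, 0.292%, had a mean of at least 2-fold. This absence is therefore no result about the lists. In deposited values the medians of all 8 lists lay above 0, between 0.26 and 0.49. The medians nearest to 0 changed sign with the setting: with the brightest probe set that of the proteasome was -0.06, that of the stress granule proteins 0.07 and that of the SIN3 and deacetylase genes 0.02.

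**Figure D4:**
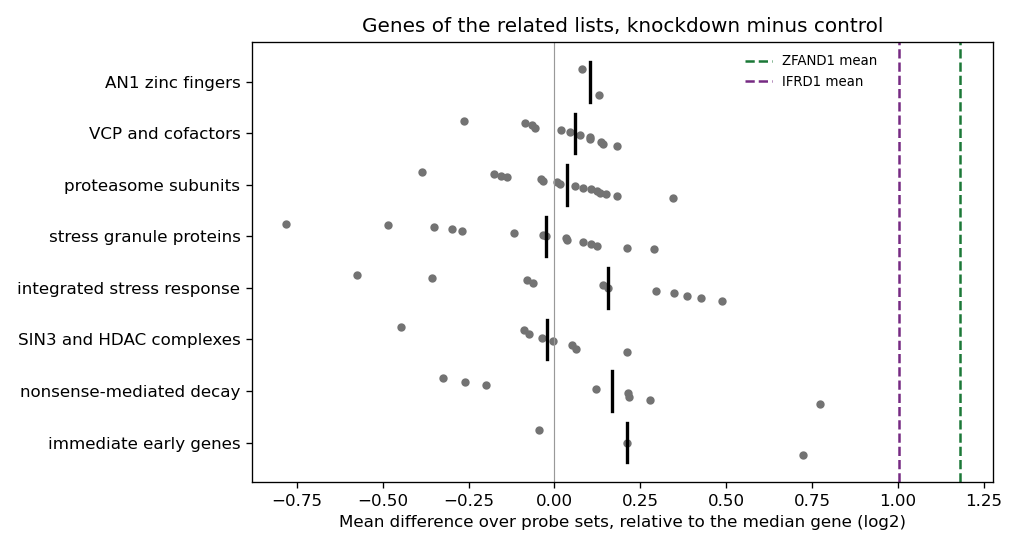
Mean relative difference over probe sets (knockdown minus control, log2) for each gene of the 8 related lists with at least 4 probe sets (points), with the list median as a short bar. The dashed lines at 1.18 and 1.0 give ZFAND1 and IFRD1, and all points lie to the left of both.

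The measured genes next to each member on its chromosome were compared last, using the gene order of GRCh38.p14 and up to 10 measured genes on each side. Around ZFAND1, 11 of 20 neighbours lay above and 9 below the median gene, with a median of 0.07 and a range from -0.46 (TMEM67) to 0.43 (TP53INP1). The nearest measured neighbours were TPD52 with -0.11 ± 0.34 over 6 probe sets, 47 genes away in the table, and WWP1, a ubiquitin ligase, with 0.10 ± 0.31 over 30, 66 genes away. Around IFRD1, 7 lay above and 13 below, with a median of -0.10 and a range from -0.58 (TAF6) to 0.42 (TES). The nearest were the laminin chain LAMB1 with -0.23 ± 0.23 over 39 probe sets, 49 genes away, and the focal adhesion protein TES with 0.42 ± 0.24 over 10, 32 genes away. With the brightest probe set the median around ZFAND1 was -0.04, and with bright probe sets alone that around IFRD1 was 0.10 over 13 of the 20. None of the 40 neighbours was 1.5-fold away from the median gene. The furthest lay 497 genes from ZFAND1 (PRKDC) and 264 genes from IFRD1 (TMEM209), so these neighbours do not describe the close surroundings of either member. Genes closer to either member were not analysed here.

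**Figure D5:**
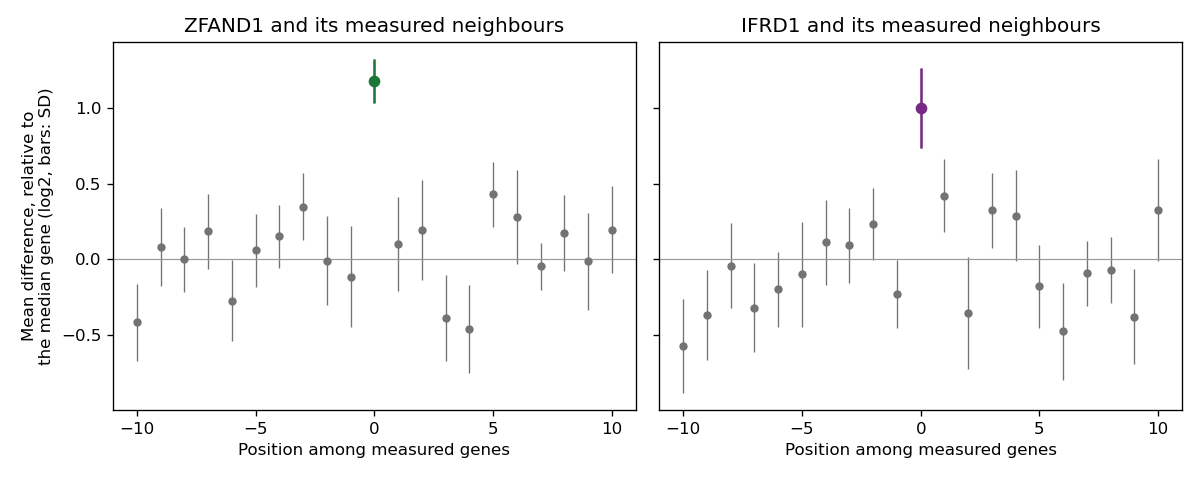
Mean relative difference (knockdown minus control, log2, bars give the SD over probe sets) of ZFAND1, IFRD1 and up to 10 measured genes on each side, in chromosome order. The members stand at position 0 with 1.18 and 1.0, and the neighbours lie between -0.58 and 0.43.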

How the data were processed

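The authors deposited natural log intensities of 45200 probe sets, 1 column for each of 2 arrays. Software, normalization and build, not given in the sources used here, could not be checked. The probe set numbers of both members have gaps, and whether the deposited values cover the whole array was not checked. They held 2792 genes with a single symbol, and most genes of the 8 lists were not among these. A gene called measured is one found among them. Ranks and shares are therefore among the deposited probe sets and genes. The log base was read from the values: their exponentials under 2000 fell on a grid of 0.5 (1154 of 41367 values in the fullest of the residue bins on the knockdown array, mean 82.7, and 1167 of 42089 on the control array, mean 84.2), which powers of 2 did not show. Values were divided by the natural log of 2.

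Probe sets were named from the platform annotation, with older symbols updated through RefSeq. Probe sets with several symbols (1055) or none (1570) were left out. A gene was the mean over its probe sets, with at least 4 required. Relative differences subtract the median over all 2792 genes, including those with fewer probe sets. No test could be made with a single array in each group. The members and lists were chosen with earlier results of these data known. Named beside the members were the 8 highest means, the 4 genes closest to each, up to 5 genes per list with the largest differences and the nearest neighbours. VCP was named beside these after its value was seen. Steps were tested on simulated data. The alternatives changed the scale, centring, normalization, summary, background and gene filter. Python 3.11.15, pandas 2.3.3 and statsmodels 0.14.6 were used.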

Additional observations from a re-analysis of the deposited data

How the results depend on the processing

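Chosen as consistently higher, ZFAND1 and IFRD1 kept a positive difference on the same 2 arrays under all 10 alternatives. Their mean relative differences of 1.18 and 1.0 moved by less than the SD over probe sets under 8 of these for each gene. Read as log2 values, the deposited numbers gave 0.82 for ZFAND1 and 0.69 for IFRD1, and 0 genes were at least 2-fold higher, since this reading shrinks every difference. Without centring they gave 1.46 and 1.29, with 27 genes. The count of 8 genes was 17 with the brightest probe set, 4 with bright probe sets alone, where 1791 genes had enough of them, and 16 after an intensity of 50 was subtracted. By rank, ZFAND1 lay between 1 and 10 and IFRD1 between 4 and 32, both lowest with the brightest probe set. IFRD1 lay at 0.89 there and at 0.996 without the probe set with the largest difference, both under 2-fold. The latter setting left that probe set out of every gene and centred anew over the rest, with 2602 genes counted. ZFAND1 was at 1.19 in it. The value of 0.996 therefore does not show the effect of leaving out the IFRD1 probe set alone. Of the probe sets, 0 of 8 for ZFAND1 and 1 of 13 for IFRD1 were 2-fold higher when read as log2, and 4 of 9 for IFRD1 with bright probe sets. Of 100 list medians over the alternatives, 89 moved by less than the pooled SD over probe sets, 0.28. The main medians lay between -0.10 and 0.21, so this measure does not catch a change of sign. The other 11 were the medians without centring, which raises each by 0.28, and that of nonsense-mediated decay with the brightest probe set. No paired analysis was possible because each condition had 1 array, which also left no replicate to leave out. No detection call was used, so whether the dimmest probe sets, at a control log2 intensity of 6.68 in IFRD1 and 7.22 in ZFAND1, stood above background is unknown.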
